A study of Mus musculus with 6 samples.

Results

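The CCN genes encode a small family of secreted proteins of the extracellular matrix, and all 6 of its mouse members, *Ccn1* to *Ccn6*, were among the 47729 genes of the deposited table. They were found by the Ensembl identifiers that the GRCm38 annotation pairs with these symbols, whose older names are *Cyr61*, *Ctgf*, *Nov*, *Wisp1*, *Wisp2* and *Wisp3*. The libraries were made from polyadenylated RNA of the epiphyses at the proximal end of the tibia, from 3 Control mice and 3 LS1 mice. All were 14 days old and came from different families of generation 13 of the selection experiment. LS1 (Longshanks 1) comes from selective breeding for tibia length against body mass, and Control (ICR) from random breeding of the same outbred stock. LS1 is thus 1 selected line, and differences that arose in it by drift cannot be told apart from those due to selection. Each library held the pooled left and right epiphyses of 1 mouse, so that articular cartilage, the secondary ossification center, the growth plate and the metaphysis were measured together. The question was whether the expression of these genes differed between the tibiae of the long-boned line and those of Control.

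CCN proteins are matricellular, which means that they are deposited in the matrix and act on the cells around them rather than giving the matrix its strength. A typical member has 4 modules, which resemble an insulin-like growth factor binding protein, a von Willebrand factor type C repeat, a thrombospondin type 1 repeat and a cystine knot, and *Ccn5* lacks the last of these. Through the modules they bind integrins, proteoglycans and growth factors. *Ccn1* and *Ccn2* are textbook immediate early genes and targets of the transcriptional cofactors YAP and TAZ with their TEAD partners. *Ccn2* is known for its high expression in prehypertrophic and hypertrophic chondrocytes. *Ccn4* and *Ccn5* were named as genes induced by Wnt1, and mutations of human *CCN6* cause progressive pseudorheumatoid dysplasia, a disease of articular cartilage.

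Control libraries held 68803249 to 76581954 reads and LS1 libraries 82227711 to 88745366, without overlap. All 6 CCN genes passed the filter of a mean of at least 20 reads and were tested, and the smallest number behind any of their values was 229 reads. Values are normalized counts, the reads of a gene divided by 1 size factor per library, and the difference between groups was tested with limma on log2(normalized count + 1) over 19308 genes. On the first principal component of all tested genes LS1 replicate 3 lay at -4.29, between the Control libraries (-41.5 to -22.1) and the other LS1 libraries (43.7 and 50.1), so the log2 fold changes of each CCN gene, and the marker lists in which it stood apart, are given with and without it. Markers of cartilage, bone, marrow and vessels were read in every sample, as the tissue label says, and none of the markers used was at 0.

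RefSeq promoter sequences of the GRCm38.p6 build were at hand for 2 of the 6 genes, *Ccn1* and *Ccn6*. They are shown because no others were at hand. The groups did not overlap in either gene, which also held for *Ccn2* and *Ccn3*. A TEAD site is what links *Ccn1* to YAP and TAZ. Each run covers the 250 bases before the annotated start of transcription, 5′ to 3′ on the gene's own strand, and capitals mark the motif matches described next.
*Ccn1*, chr3:145649986-145650235, minus strand: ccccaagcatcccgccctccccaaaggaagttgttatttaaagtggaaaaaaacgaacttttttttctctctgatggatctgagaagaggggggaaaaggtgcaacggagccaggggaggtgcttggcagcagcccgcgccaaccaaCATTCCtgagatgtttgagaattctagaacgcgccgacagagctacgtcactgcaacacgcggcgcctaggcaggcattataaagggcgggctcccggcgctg
*Ccn6*, chr10:39163795-39164044, minus strand: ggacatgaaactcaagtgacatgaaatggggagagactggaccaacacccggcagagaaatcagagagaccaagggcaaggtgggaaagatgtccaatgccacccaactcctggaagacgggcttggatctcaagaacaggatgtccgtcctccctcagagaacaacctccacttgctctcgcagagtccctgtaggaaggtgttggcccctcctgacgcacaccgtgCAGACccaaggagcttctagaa

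Both windows were searched on both strands for CATTCC (TEAD), the CArG box of SRF, TGANTCA (AP-1), CTTTGA (TCF and LEF), ACAATG (SOX), TGTGGT (RUNX) and GTCTG (SMAD). The *Ccn1* window held 1 CATTCC, from 103 to 98 bases before the start, and no match to the other letters. CATTCC was present in 12.6% of 32817 promoter windows of the same length, the CArG box in 1.47%, TGANTCA in 6.75%, CTTTGA in 13.8%, ACAATG in 10.7% and TGTGGT in 14.0%. The *Ccn6* window held 1 GTCTG on the opposite strand, from 22 to 18 bases before the start, and these 5 letters were present in 42.2% of all windows. No motif of the list was shared by both windows and no matches overlapped. Both windows had a GC content of 54.8%.

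Per kilobase of merged exons, the measure used here to compare levels between genes, the family spanned more than an order of magnitude. *Ccn2* (ENSMUSG00000019997), on chromosome 10 of GRCm38 from 24595442 to 24598683, had the highest level, from 7666 to 10809 normalized counts per kilobase over the 6 libraries. That level was above 98.4% of all tested genes. *Ccn1* (ENSMUSG00000028195, chromosome 3, 145646976 to 145649981) ranged from 3053 to 4726 per kilobase and *Ccn4* (ENSMUSG00000005124, chromosome 15, 66891320 to 66923201) from 3136 to 4444 per kilobase. Each of the latter pair was the higher in 3 of 6 libraries, so their order was not set by these data. *Ccn5* (ENSMUSG00000027656, chromosome 2, 163820861 to 163833146) came next with 957 to 2260 per kilobase.

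*Ccn3* (ENSMUSG00000037362, chromosome 15, 54745702 to 54754039) and *Ccn6* (ENSMUSG00000062074, chromosome 10, 39150970 to 39163794) had the lowest levels, at 231 to 535 and 178 to 429 per kilobase. The ranges of both overlapped, and *Ccn3* was the higher in 4 of 6 libraries. They still stood above 54.5% and 52.1% of all tested genes. *Ccn2* was 2.19 to 2.83 times as high as *Ccn1* in each library, which made it the member with about as much signal per length as all the others together, with 45.2% to 52.2% of the family total.

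**Figure D1:**
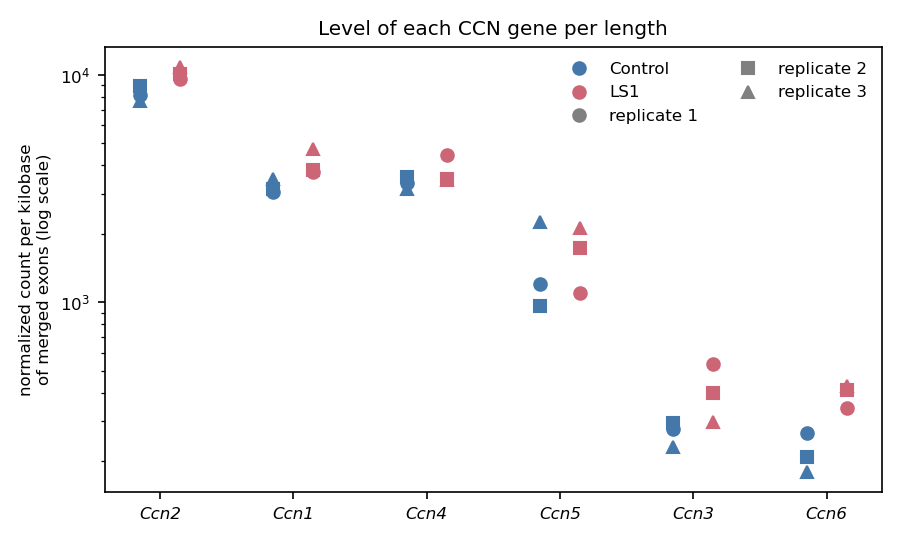
Level of each CCN gene in each library, in normalized counts per kilobase of merged exons on a log axis, with Control in blue, LS1 in red and the shape of the symbol marking the replicate. *Ccn2* lies highest at 7666 to 10809, *Ccn1* and *Ccn4* lie together, and *Ccn3* and *Ccn6* lie lowest.

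In the comparison of LS1 with Control, all 6 CCN genes had a log2 fold change above 0, as did 50.7% of all genes tested. A scale set by chondrocyte markers, given further on, lowers the log2 fold change of every gene by 0.47, which puts 4 of the 6 and 90.1% of all genes below 0. In 4 of them, *Ccn1*, *Ccn2*, *Ccn3* and *Ccn6*, every LS1 library lay above every Control library, which held for 10.3% of all genes, and in *Ccn4* and *Ccn5* the groups overlapped. An adjusted p under 0.05 from limma was reached by 0 of the 6, and by 0.0725% of all genes (0.0104% with a higher value in LS1). With edgeR the count was also 0 of 6, against 0.0363% of all genes. DESeq2 called 1 member, *Ccn6*, and 2.36% of all genes. An unadjusted p under 0.05 from limma was reached by 4 members, all with a higher value in LS1, against 7.08% of all genes with a higher and 5.86% with a lower value. The log2 fold changes of the family ran from 0.18 to 0.87 with a median of 0.32, where the median of all tested genes was 0.0054. In these bulk samples more cells of a type and more RNA per cell cannot be told apart.

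*Ccn6*, the member named above for human cartilage disease, had the largest difference of the family. The Control libraries held 376, 296 and 253 normalized counts of it, and the LS1 libraries 485, 583 and 608. The lowest LS1 library lay above the highest Control library. Control averaged 309 ± 62.5 (SD, n = 3 mice) and LS1 averaged 559 ± 65.3 (SD, n = 3 mice), a 1.81-fold ratio. By limma the log2 fold change was 0.87 (95% interval 0.38 to 1.35, standard error 0.22, adjusted p = 0.206). DESeq2 on the recovered reads gave 0.85 with an adjusted p of 0.0149. Without LS1 replicate 3 the log2 fold change was 0.80 (adjusted p = 0.148 from limma). The study put *Wisp3* on its list for follow-up from these same libraries, so this direction is not independent evidence. The outcome of that follow-up, in growth plates of other mice, is not reported here.

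The last exon of *Ccn6*, 482 of its 1419 exonic bases, lies wholly within exonic sequence of *Tube1* on the opposite strand, and whether the counting used strand is not given in the sources used here. *Tube1* encodes epsilon-tubulin, a centriole protein. Its normalized counts were 773, 774 and 669 in Control and 840, 738 and 707 in LS1, with overlapping groups and a difference of 0.04 on the log2 scale (limma, standard error 0.18, adjusted p = 0.941). The 95% interval of *Tube1* ran from -0.34 to 0.43, and its part in the reads of *Ccn6* was not tested.

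*Ccn3*, whose protein is known as an antiproliferative member that opposes *Ccn2* in cartilage cells, had the next largest difference. Its normalized counts were 797, 840 and 661 in Control and 1535, 1142 and 854 in LS1. LS1 replicate 1 was the highest and LS1 replicate 3 lay just above the highest Control library. Control averaged 766 ± 93.3 (SD, n = 3 mice) and LS1 averaged 1177 ± 342 (SD, n = 3 mice), so the spread within LS1 was wider than within Control. By limma the log2 fold change was 0.59 (95% interval 0.09 to 1.08, standard error 0.22, adjusted p = 0.314). It was 0.80 without LS1 replicate 3 (adjusted p = 0.0880 from limma) and 0.37 without LS1 replicate 1 (adjusted p = 0.477 from limma).

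*Ccn1* encodes an adhesive protein with roles in vessel growth and chondrogenesis. It had 6164, 6345 and 7053 normalized counts in Control and 7584, 7724 and 9542 in LS1. LS1 replicate 3 was the highest of the 6 libraries and Control replicate 3 the highest of its group. By limma the log2 fold change was 0.34 (95% interval 0.04 to 0.64, standard error 0.14, adjusted p = 0.334). Leaving out LS1 replicate 3 gave 0.23 (adjusted p = 0.449 from limma).

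*Ccn2*, the connective tissue growth factor, had 23253, 25480 and 21932 normalized counts in Control and 27318, 28999 and 30925 in LS1. The groups did not overlap, and the SD was nearly the same in both, at 1793 in Control and 1805 in LS1. By limma the log2 fold change was 0.30 (95% interval 0.03 to 0.58, standard error 0.13, adjusted p = 0.344), a 1.23-fold ratio of means. Without LS1 replicate 3 it was 0.26 (adjusted p = 0.408 from limma). *Ccn2* shares 665 exonic bases with *Gm15270*, a transcript on the opposite strand with 42.4 to 61.0 normalized counts in all 6 libraries and a log2 fold change of -0.04 (adjusted p = 0.972 from limma).

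*Ccn4* is expressed in osteoblasts and their precursors. Its normalized counts were 18551, 19801 and 17451 in Control and 24731, 19406 and 19226 in LS1. LS1 replicate 1 stood above the rest, and the other LS1 libraries lay within the Control range. By limma the log2 fold change was 0.18 (95% interval -0.13 to 0.48, standard error 0.14, adjusted p = 0.623). Leaving out LS1 replicate 1 gave 0.06 (adjusted p = 0.892 from limma), and leaving out LS1 replicate 3 gave 0.24 (adjusted p = 0.477 from limma).

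*Ccn5*, the member without the cystine knot module, varied more between the mice of a line than between the lines. It had 2324, 1841 and 4348 normalized counts in Control and 2108, 3336 and 4085 in LS1. The highest and the lowest of the 6 libraries were both Control libraries. Control averaged 2838 ± 1330 (SD, n = 3 mice) and LS1 averaged 3176 ± 998 (SD, n = 3 mice), and limma put the log2 fold change at 0.21 (95% interval -0.63 to 1.05, standard error 0.36, adjusted p = 0.845). This interval holds both 0 and the value of *Ccn6*, so a difference of that size could not be told from none. With Control replicate 2 left out the value was -0.05 (adjusted p = 0.981 from limma), and with Control replicate 3 left out it was 0.57 (adjusted p = 0.571 from limma). Without LS1 replicate 3 it was 0.00 (adjusted p = 0.999 from limma).

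**Figure D2:**
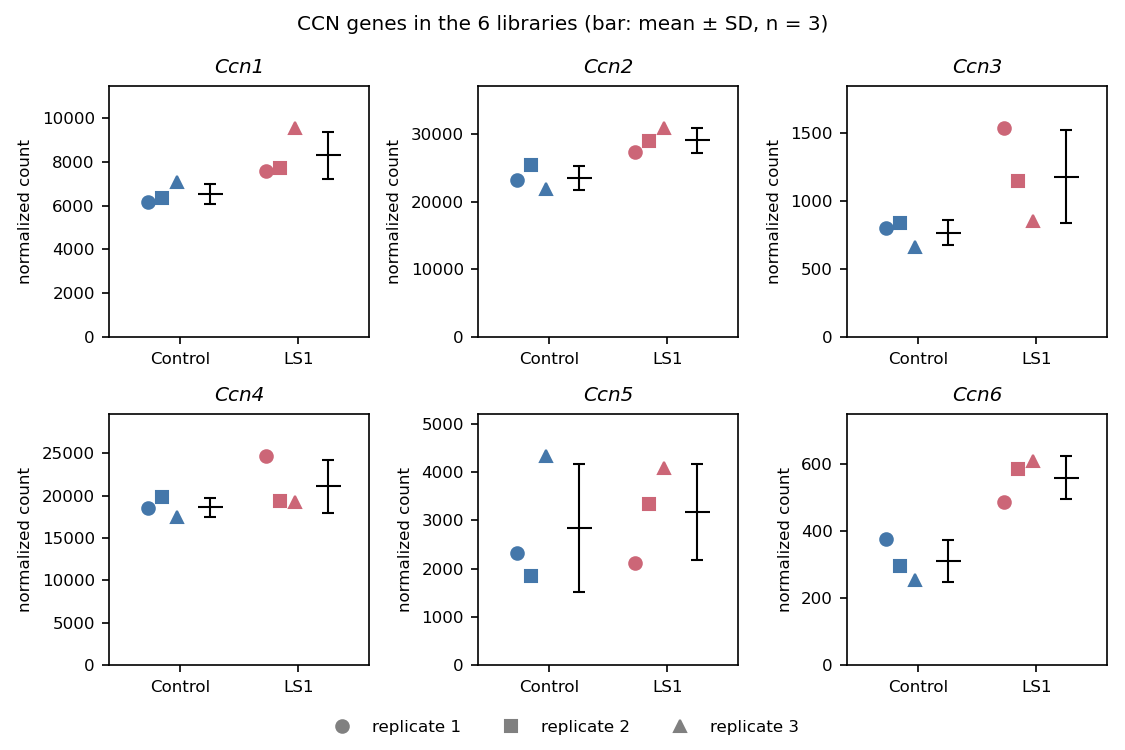
Normalized counts of the 6 CCN genes in each library, with Control in blue and LS1 in red, the shape of the symbol marking the replicate, and the mean ± SD (n = 3) in black. The LS1 points of *Ccn1*, *Ccn2*, *Ccn3* and *Ccn6* all lie above the Control points, while those of *Ccn4* and *Ccn5* overlap them.

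Summed over the family, the level was 16265, 17065 and 16964 normalized counts per kilobase in Control and 19721, 19992 and 21840 in LS1. Control averaged 16765 ± 436 (SD, n = 3 mice) and LS1 averaged 20518 ± 1153 (SD, n = 3 mice), a ratio of 1.22 that is weighted toward *Ccn2* by its level. With 3 mice against 3, an exact permutation test of a single value cannot give a two-sided p below 0.1. The ratio ran from 1.18 to 1.25 over the fits that each lacked 1 library, the lowest being that without LS1 replicate 3.

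The mix of members within the family was also compared. *Ccn6* made up 1.63%, 1.22% and 1.05% of the summed level in Control and 1.73%, 2.06% and 1.96% in LS1, without overlap (two-sided p = 0.1 by exact permutation, which is the smallest possible). The share of *Ccn2* averaged 49.1% ± 3.58 (SD, n = 3 mice) for Control and 49.5% ± 1.14 (SD, n = 3 mice) for LS1. Of 15 pairs of members, the log2 ratio of *Ccn2* to *Ccn6* averaged 6.27 ± 0.28 (SD, n = 3 mice) for Control and 5.71 ± 0.10 (SD, n = 3 mice) for LS1, a difference of -0.56 (exact permutation test, two-sided p = 0.1, and 0.5 adjusted over the 15 pairs). The log2 ratio of *Ccn1* to *Ccn2* differed by 0.03 between the lines, within its SD of 0.19 in Control. For *Ccn1* to *Ccn6* the difference was -0.53 (exact permutation test, two-sided p = 0.1, and 0.5 adjusted over the 15 pairs). The log2 ratio of *Ccn3* to *Ccn4*, which lie on the same chromosome, differed by 0.41 (exact permutation test, two-sided p = 0.1, and 0.5 adjusted over the 15 pairs). No ratio reached a p under 0.05, which this design cannot give.

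The profiles of the members over the 6 libraries were compared in the 15 pairs. Each log2 profile was centred on its mean over the 6 libraries. The root mean square difference between the profiles of *Ccn1* and *Ccn2* was the smallest, at 0.13. That of *Ccn3* and *Ccn5* was the largest at 0.73. The measure also depends on the spread of each gene, the root mean square of its centred profile. This was 0.21 for *Ccn1*, 0.17 for *Ccn2*, 0.39 for *Ccn3* and 0.48 for *Ccn5*. The order of the pairs therefore does not show which members varied together most closely. *Ccn3* was highest in LS1 replicate 1, where *Ccn5* had its lowest LS1 value.

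Chondrocyte markers had higher levels in the LS1 libraries. Of 12 chondrocyte markers, 11 had a log2 fold change above 0 (50.7% of all genes), 0 were called by limma (0.0725% of all genes) and 6 by DESeq2 (2.36% of all genes), and they had a median log2 fold change of 0.53, against a median of 0.0054 over all genes tested. Summed, they reached 350252 to 390742 normalized counts per kilobase in Control and 465327 to 528225 in LS1. *Acan* and *Col2a1*, for aggrecan and type II collagen, differed by 0.50 and 0.24 on the log2 scale (limma, adjusted p = 0.229 and 0.557). The mean log2 value of the markers, relative to the Control mean, was 0.48, 0.53 and 0.39 in LS1 replicates 1, 2 and 3, so LS1 replicate 3 did not stand apart in this measure.

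Set against that mean in the same library, the log2 fold changes of *Ccn1*, *Ccn2*, *Ccn4* and *Ccn5* were -0.13, -0.16, -0.29 and -0.26, that of *Ccn3* was 0.12 and that of *Ccn6* was 0.40 (adjusted p = 0.181 from limma for *Ccn6*), where limma called 0 of them. This scaling subtracts the same 0.47 from the log2 fold change of every gene, so a value under 0.47 turns negative by construction, as it did in 90.1% of all genes tested. The median of all tested genes moved to -0.46. All 6 members lay above it, as they did before the scaling, which cannot change that order. On this scale the *Ccn6* values were 0.33, -0.09 and -0.23 in Control and 0.19, 0.40 and 0.61 in LS1, so the groups overlapped. They also overlapped in *Ccn1*, *Ccn2*, *Ccn3* and *Ccn5*. Only in *Ccn4* did they not, with LS1 lower, at 0.018, 0.039 and -0.057 in Control and -0.065, -0.470 and -0.337 in LS1 (adjusted p = 0.126 from limma). The share of all genes without overlap on this scale was not counted. The part that cartilage content had in the CCN values was not tested beyond this.

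**Figure D3:**
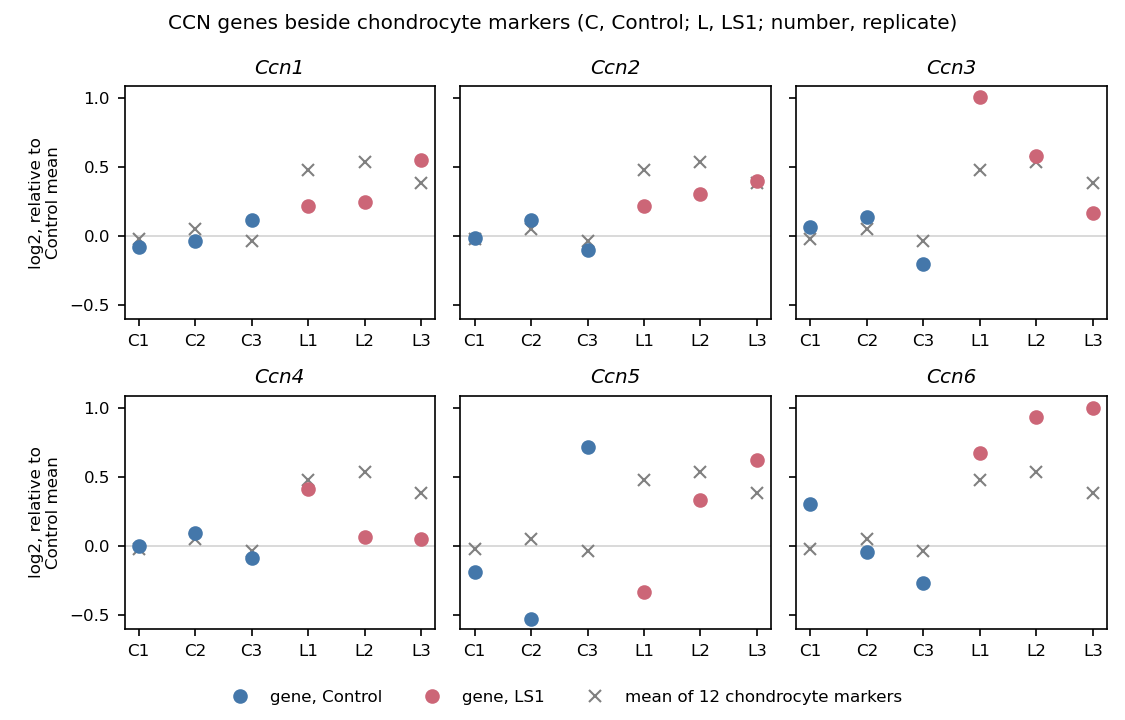
Log2 value of each CCN gene in each library relative to its Control mean (circles, Control in blue and LS1 in red), beside the mean of the 12 chondrocyte markers on the same scale (crosses). The *Ccn6* circles lie above the crosses in the 3 LS1 libraries, those of *Ccn4* lie below them, and *Ccn5* is near 0.71 in Control replicate 3 and -0.33 in LS1 replicate 1.

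Other cell types were read from lists in the same way, with 0 limma calls in each list (0.0725% of all genes). DESeq2 made 1 call in each of the hypertrophic, superficial, osteoblast and B cell lists (2.36% of all genes). Hypertrophic chondrocyte markers had a median log2 fold change of 0.34 (5 tested, 0 called by limma), but 3 had a higher and 2 a lower value in LS1. They ran from -0.37 for *Mmp13* to 0.61 for *Col10a1*. Their summed levels were 254841 to 388874 in Control and 318003 to 363422 in LS1, in normalized counts per kilobase here and below. Markers of superficial and fibrous tissue had a median of 0.50 (6 tested, 0 called by limma), with sums of 18381 to 20331 in Control and 20719 to 28073 in LS1. For osteoblasts and osteocytes the median was -0.11 (8 tested, 0 called), and their sums were 508078 to 589420 in Control and 450351 to 492697 in LS1. Erythroid markers had a median of -0.51 (5 tested, 0 called), with sums of 76005 to 106475 in Control and 50374 to 82399 in LS1. B cell markers had one of -0.66 (5 tested, 0 called), with sums of 19930 to 22885 and 13401 to 21484. Skeletal muscle markers had a median of -0.68 (5 tested, 0 called), with sums that overlapped between the groups, at 4866 to 12070 in Control and 2400 to 7208 in LS1. Osteoclast, endothelial, macrophage and neutrophil markers had medians of 0.03, 0.09, 0.19 and 0.33, and none was called. The osteoclast sums were 212373 to 271827 for Control and 176759 to 288633 for LS1, and the endothelial ones 4882 to 5489 and 4996 to 5880. For macrophages the sums were 10721 to 15856 and 13701 to 15426, and for neutrophils 171473 to 246151 and 234564 to 271291. LS1 replicate 3 stood apart in some lists: relative to the Control mean, the superficial median was 0.59, 0.63 and 0.04 in LS1 replicates 1, 2 and 3, and the B cell median -0.63, -1.06 and 0.04. Without that library the superficial, B cell and hypertrophic medians of the log2 fold change were 0.67, -0.85 and 0.17, the chondrocyte median was 0.57, and the osteoclast and endothelial ones turned to -0.13 and -0.01. Limma then called 4 chondrocyte, 3 superficial, 3 B cell, 1 macrophage and 1 erythroid marker, and 1.68% of all genes. Whether any of these lists had a part in the CCN values was not tested.

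Of the 11 marker lists, 2, osteoclast and neutrophil, ordered the libraries of each group as *Ccn5* did. Relative to the Control mean, the median of the osteoclast list was 0.25 in Control replicate 3 and 0.34 in LS1 replicate 3, the pair of libraries with the most *Ccn5*. It was -0.19 in Control replicate 2 and -0.39 in LS1 replicate 1, which had the least *Ccn5* of their groups. The neutrophil median was -0.08, -0.13 and 0.26 in Control and 0.09, 0.31 and 0.41 in LS1. Endothelial and hypertrophic medians were also highest in replicate 3 of each group, at 0.15 and 0.19 for the endothelial list and 0.16 and 0.61 for the hypertrophic one. This likeness was noticed after the values were seen and its part in *Ccn5* was not tested.

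The proteins that CCN members work with were read from lists of receptors, matrix partners, regulators and target genes. Of the 103 distinct genes tested in 7 lists, limma, edgeR and DESeq2 each called 0 at an adjusted p under 0.05. Over all genes tested they called 0.0725%, 0.0363% and 2.36%, so a count of 0 says little about these genes. The log2 fold change was above 0 in 74 of the 103, and in 50.7% of all genes. The same shares of all genes stand behind the counts of each list below. An unadjusted p under 0.05 was reached by 17 genes, 14 with a higher and 3 with a lower value in LS1, or 16.5%, against 12.9% of all genes tested. All LS1 libraries lay above all Control libraries in 15.5% of the 103 genes, against 10.3% of all. Their median log2 fold change was 0.13, against 0.0054 over all genes.

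CCN receptors are mainly integrins, with LRP1, LRP6, syndecan-4 and Notch1 as further binding partners on the cell. Of 15 such genes tested, 11 had a higher value in LS1, the median log2 fold change was 0.16, and 0 were called by limma. *Itgb1*, the beta-1 integrin shared by many collagen and CCN receptors, had the highest level of the list. It had 54206, 50822 and 60931 normalized counts in Control and 68439, 62256 and 66648 in LS1, without overlap (log2 fold change 0.25, adjusted p = 0.443 from limma). *Itgam*, a myeloid integrin that binds CCN1, had the highest log2 fold change of the list at 0.35 (adjusted p = 0.299 from limma). *Itga2b*, the platelet integrin of megakaryocytes, had the lowest at -0.74 (adjusted p = 0.320 from limma), with 2571, 5091 and 5323 normalized counts in LS1 and 5499 to 8011 in Control.

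Of 12 matrix and growth factor partners, 12 had a log2 fold change above 0 with a median of 0.21, and 0 were called by limma. For *Vtn*, the vitronectin gene, that sign is not settled, since its log2 fold change was 0.21 with a standard error of 1.13 (adjusted p = 0.959 from limma) while DESeq2 gave -0.35. Its normalized counts were 41.4, 1.11 and 27.7 in Control and 4.76, 21.8 and 28.9 in LS1, with the lower mean in LS1, and it was named after its values were seen. *Acan*, whose product binds CCN2, had the highest log2 fold change among them and *Tgfb1*, which CCN2 is also known to bind, the lowest, at 0.03 (adjusted p = 0.951 from limma). *Col2a1* had the highest level. *Acan* and *Col2a1* are also chondrocyte markers and were given above.

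The regulators were read next. YAP and TAZ are held in the cytoplasm by the Hippo kinases and, when free, bind TEAD factors on DNA. Of 20 genes of this pathway 15 had a higher value in LS1 and the median was 0.17 on the log2 scale, and 0 were called by limma. *Mob1a*, a kinase activator with the highest level of the list, had a value of 0.16 (adjusted p = 0.599 from limma). *Vgll3*, a cofactor of TEAD, had 43.4, 37.7 and 31.0 normalized counts in Control and 80.0, 70.5 and 102 in LS1, without overlap. Its value of 1.15 on the log2 scale (limma, standard error 0.33, adjusted p = 0.236) was the highest of the 7 lists. *Wwc1*, which encodes the upstream regulator KIBRA, had the lowest value of the list at -0.43 (adjusted p = 0.468 from limma).

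Of 20 other target genes of YAP and TEAD, 15 had a higher value in LS1 and the median was 0.10 on the log2 scale, 6 had an unadjusted p under 0.05 and a higher value in LS1 and 1 an unadjusted p under 0.05 and a lower value, where the shares of all genes tested were 7.08% and 5.86%. The limma count was 0. *Ccdc80*, a secreted matrix protein with the highest level of the list, had 25687, 24958 and 24901 normalized counts in Control and 36572, 31519 and 31518 in LS1 (log2 fold change 0.40, adjusted p = 0.259 from limma). *Tgfb2*, a growth factor of cartilage, had the highest value of the list at 0.52 (adjusted p = 0.301 from limma), and its groups overlapped.

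*Ankrd1*, a nuclear and sarcomere protein that is a YAP target and is abundant in muscle, stood at the other end of this list. It had 57.5, 35.5 and 22.1 normalized counts in Control and 6.67, 10.4 and 18.7 in LS1, or -1.61 on the log2 scale (limma, standard error 0.54, adjusted p = 0.277). The groups did not overlap, with LS1 the lower, as in 8.94% of all genes tested. The sign was the opposite of that of *Ccn1* and *Ccn2*, classical targets of the same factors. The skeletal muscle markers had their lowest median in LS1 replicate 1 (-1.88 relative to the Control mean) and their highest in Control replicate 1 (0.80), the libraries with the least and the most *Ankrd1*. The other libraries did not keep this order. The median was 0.19 and -0.37 in LS1 replicates 2 and 3, and -0.15 and -0.57 in Control replicates 2 and 3, which had more *Ankrd1*. The part of muscle in the *Ankrd1* value was not tested.

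*Ccn1* and *Ccn2* also respond within minutes to serum, stretch and handling, so other immediate early and SRF target genes were read beside them. Of 17 genes, 13 had a higher value in LS1 and the median was 0.12 on the log2 scale. Limma called 0, and 1 had an unadjusted p under 0.05, as did 12.9% of all genes tested. That gene was *Atf3*, a stress transcription factor, with 797, 865 and 655 normalized counts in Control and 1087, 1368 and 881 in LS1 (log2 fold change 0.51, adjusted p = 0.332 from limma). *Klf6* had the highest level of the list and a value of 0.22 (adjusted p = 0.541 from limma), and *Srf* itself the lowest value at -0.28 (adjusted p = 0.588 from limma). Relative to the Control mean, the list's median was -0.09, 0.30 and 0.15 in the LS1 libraries 1, 2 and 3, and from -0.06 to 0.05 in Control. Whether these genes and *Ccn1* and *Ccn2* moved together was not tested.

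For *Ccn4* and *Ccn5*, named after Wnt1, target genes of Wnt signaling were read. Of 11 tested, 4 had a higher value in LS1, the median log2 fold change was -0.13 and 0 were called by limma. *Dkk1*, a Wnt antagonist with the highest level of the list, had a value of -0.04 (adjusted p = 0.944 from limma). *Tcf7* had the highest value at 0.34 (adjusted p = 0.4165 from limma) and *Lgr5* the lowest at -0.63 (adjusted p = 0.435 from limma), both with overlapping groups. *Sp5* was below the filter on reads and was not tested. Of 9 target genes of TGF-beta, an inducer of *Ccn2*, 5 had a higher value in LS1, the median was 0.04 and 0 were called by limma. In that list *Tgfbi* had the highest value at 0.40 (adjusted p = 0.335 from limma), *Ltbp2* the lowest at -0.51 (adjusted p = 0.486 from limma), and *Tnc* the highest level with a value of 0.04 (adjusted p = 0.932 from limma).

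**Figure D4:**
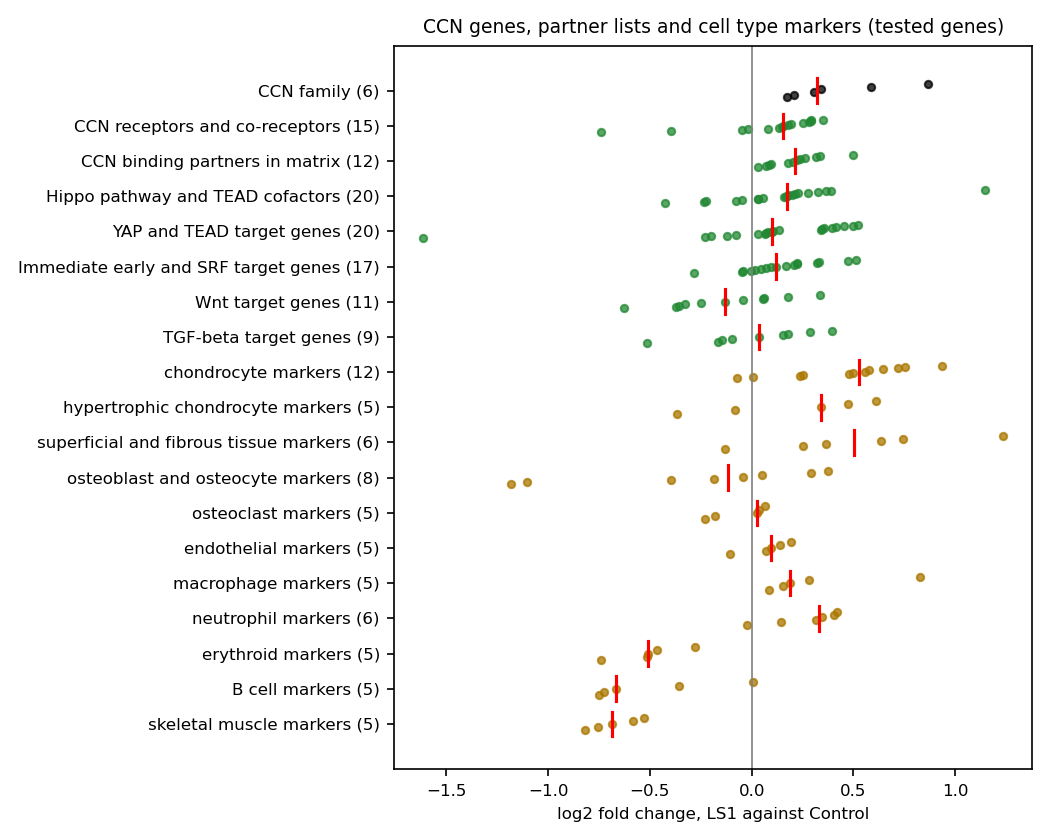
Log2 fold change, LS1 against Control, of each tested gene of the CCN family (black), of the partner and target lists (green) and of the cell type markers (brown), with the number of tested genes in parentheses and the median of each list as a red bar. All 6 CCN genes lie above 0 with a median of 0.32 (4 of them, and 90.1% of all genes, lie below 0 on the scale of the chondrocyte markers). The medians of the partner lists are at most 0.21. Those of neutrophil and hypertrophic chondrocyte markers are 0.33 and 0.34, and those of superficial and chondrocyte markers 0.50 and 0.53.

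Across all 17 alternative settings run on each member, *Ccn6* had a log2 fold change of 0.40 to 1.02 and *Ccn3* one of 0.12 to 0.80, so neither changed sign. *Ccn1* and *Ccn2* had a log2 fold change above 0 under all other settings run, and on the chondrocyte marker scale, which lowers all genes alike, they were below 0. The DESeq2 value of *Ccn6* was the single call among the alternatives for the 6 genes.

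**Figure D5:**
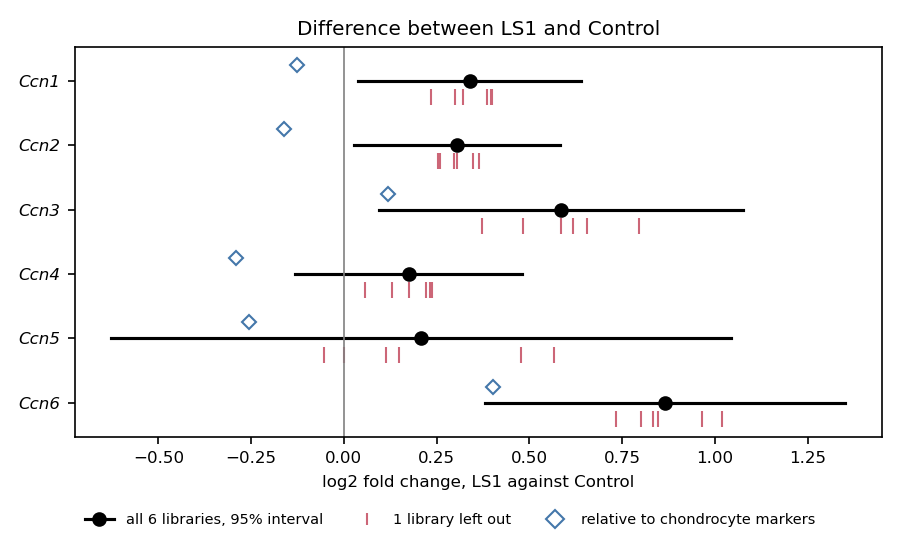
Log2 fold change of each CCN gene, LS1 against Control, with its 95% interval from limma (black), the values with 1 library left out (red ticks) and the value relative to the chondrocyte markers of the same library (blue diamonds). The interval of *Ccn6* runs from 0.38 to 1.35, those of *Ccn4* and *Ccn5* cross 0, and 4 diamonds lie left of 0, as 90.1% of all genes do on that scale.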

How the data were processed

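The authors mapped paired-end reads to GRCm38 (Ensembl release 84) with HISAT2 2.0.2, counted them per gene with featureCounts 1.4.6 and used DESeq2. The deposited signal per gene is the read count divided by 1 size factor per library, without a filter on genes. Dividing by the value of 1 read gave whole numbers for 100% of genes (tolerance 0.001) in every library, and these were used as reads. For Control replicate 1 that value was 1.01, near 1, but its normalized counts were not whole numbers themselves, such as 376.35 for *Ccn6*. Here LS1 and Control (3 mice each) were compared with limma 3.58.1 (R 4.3.3) on log2(value + 1), with trend and robust moderation, for genes with a mean of at least 20 reads, with Benjamini-Hochberg adjustment over all of them. On this scale the fold change of low genes is understated. Alternatives used edgeR 4.0.16, DESeq2 1.42.0 and limma-voom on recovered reads. The scripts were tested on simulated data. GENCODE M21 (GRCm38) supplied symbols, exons and positions for 98.9% of identifiers. Members and gene lists were chosen with earlier results of these data known. Named genes were the 6 members, genes overlapping them, the highest-level gene and the largest increase and decrease of each partner list, genes of those lists under the threshold, and the 2 genes most like each member. Cell type markers and genes with a noted likeness are named as examples. Replicates differed by far more than read sampling (a chi-square of 42.9 to 164 for each degree of freedom). The limma p-values weigh the difference between the groups against the spread between these mice, moderated over all genes tested. Those of the exact permutation test come from reassigning the 6 libraries to the groups.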

Additional observations from a re-analysis of the deposited data

How the results depend on the processing

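Apart from DESeq2, no alternative run on the CCN genes gave an adjusted p under 0.05 for any member. With DESeq2, 1 member was called, *Ccn6* (0.85, adjusted p = 0.0149 from DESeq2). Relative to the chondrocyte markers, *Ccn1* (-0.13), *Ccn2* (-0.16), *Ccn4* (-0.29) and *Ccn5* (-0.26) were below 0. This scale lowers every log2 fold change by 0.47 and puts 90.1% of all genes below 0, so the sign bears on no member in particular. The marker mean is subtracted in each library, so the spread within groups changed too, unlike from gene to gene. The adjusted p from limma went from 0.623 to 0.126 for *Ccn4* and from 0.206 to 0.181 for *Ccn6*. *Ccn5* changed sign without Control replicate 2 (-0.0535). Over the fits without 1 library, log2 fold changes were 0.23 to 0.40 for *Ccn1*, 0.25 to 0.36 for *Ccn2*, 0.37 to 0.80 for *Ccn3*, 0.06 to 0.24 for *Ccn4*, -0.05 to 0.57 for *Ccn5* and 0.73 to 1.02 for *Ccn6*, with 0 members called in each. The family ratio was 1.18 to 1.25. Between 0 and 1 partner genes were called, the 1 being *Myof* without LS1 replicate 3 (adjusted p = 0.0481 from limma). Over all genes limma called 14, against 7 with edgeR, 456 with DESeq2, 45 without a filter on reads, and 5 to 324 with 1 library left out (9 without Control replicate 1, 5 without Control replicate 2, 46 without LS1 replicate 1 and 324 without LS1 replicate 3). The cause was not tested. The marker medians without LS1 replicate 3 were added after seeing the data, and those of the osteoclast (-0.13) and endothelial (-0.0079) lists changed sign. Other pseudocounts, filters and normalizations changed no call or direction of a member. The titles share the letters A, B and C between groups, but the correlations of same-lettered deviations were 0.05, 0.02 and 0.22, and 2 of 6 libraries correlated best with their own letter, so the samples were not taken as paired. With the replicate block limma called 12 genes, 0 CCN members and 0 partner genes, with log2 fold changes of 0.34, 0.30, 0.59, 0.18, 0.21 and 0.87 for *Ccn1* to *Ccn6*. The lowest read number behind a *Ccn6* value, 229, leaves counting error small beside the spread between mice.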

Other observations

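By the profile measure used above, the 2 genes nearest to each CCN gene were taken from 14964 tested protein-coding genes. They were picked for following the same 6 libraries, so a shared order or a shared high library is part of the choice and not a result. The measure is the root mean square difference between centred log2 profiles, and it is given as a description, since the points share 6 libraries and many genes are close. The genes nearest to *Ccn6* were *Stx11* (0.07) and *3300002I08Rik* (0.10). *Stx11*, a syntaxin of immune and other cells, had 998, 825 and 703 normalized counts in Control and 1283, 1478 and 1807 in LS1, so its libraries fall in the same order as those of *Ccn6* in both groups. The genes nearest to *Ccn3* were *Pabpc4l* (0.06) and *Chst11* (0.06). *Chst11* encodes a chondroitin sulfotransferase of growth plate cartilage and had 25121, 27023 and 22512 normalized counts in Control and 45331, 36491 and 26756 in LS1.

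*Npnt* (0.04), which encodes the integrin ligand nephronectin, and *Sorl1* (0.06) were nearest to *Ccn1*. *F2r* (0.04), the thrombin receptor, and *Lancl1* (0.04) were nearest to *Ccn2*. *Jmjd1c* (0.02) and *Fam129a* (0.02) were nearest to *Ccn4*, and both share its single high library, LS1 replicate 1, with 11902 and 5769 normalized counts there. For *Ccn5* the nearest were *Muc5b* (0.13) and *Rhov* (0.16), at larger distances and with low counts, 18.8 to 39.2 for *Muc5b*. The distance also depends on a member's own spread, which was 0.48 for *Ccn5*, 0.47 for *Ccn6* and 0.17 for *Ccn2*. Closeness of tracking therefore cannot be compared between members that differ in spread.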
